A study of Mus musculus with 43 samples.

Results

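Synaptic adhesion molecules and postsynaptic scaffolds were examined in single neurons of the mouse lateral nucleus accumbens that project to the ventral tegmental area (NAcLat→VTA cells). The set held 35 genes of 11 families, taken by name from a list, of 35825 genes in the expression tables. It comprised 19 adhesion genes (2 neurexins, 2 neuroligins, 4 Lrrtm, 5 Slitrk and 3 Cadm genes and 3 receptor tyrosine phosphatases) and 16 scaffold and kinase genes (4 Dlg, 4 Dlgap, 3 Shank, 3 Homer and 2 CaMKII genes). Other genes of these families were not analysed here, so a family below means its listed members.

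The study asked what a chronic high-fat diet changes in this projection. REG denotes mice fed standard chow alone, and HFD denotes mice that could also eat a high-fat chow over several weeks. The methods list C57BL/6J among the lines used, with young adult males and females, and the labels give no strain, age or sex for a cell. Beads injected into the ventral tegmental area marked the cells in slices, and the contents of each cell were drawn into the patch pipette, so RNA of distal dendrites is sampled in part and material along the pipette's path can be drawn in. There were 43 cells, 23 REG and 20 HFD, each with 1 library; batch 1 held 13 REG and 5 HFD cells, and batch 2 held 10 REG and 15 HFD cells. The labels do not name the mouse behind a cell. Each diet was therefore treated as 1 sample, cells were not taken as replicates, and no test between the diets was made; differences are given as sizes, with batch values and leave-one-out ranges.

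Synaptic adhesion molecules span the cleft between neurons. Neurexins and the type IIa phosphatases Ptprd, Ptprs and Ptprf act mainly from the presynaptic membrane, where they bind postsynaptic partners such as neuroligins, Lrrtm proteins and Slitrk proteins, and Cadm proteins bind each other across the cleft. Beneath the postsynaptic membrane, Dlg proteins (the PSD-95 family) hold receptors, Dlgap proteins link Dlg to Shank, Shank and Homer form a deeper lattice tied to actin and metabotropic glutamate receptors, and CaMKII is an abundant calcium-dependent kinase. Most excitatory contacts onto medium spiny neurons of the accumbens are made on dendritic spines, where these scaffolds are concentrated. A cell's own RNA reports what it makes for its dendrites and for its axon terminals, and does not say where a protein goes.

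Estimated counts per cell ranged from 176961 to 16919555, with medians of 1427698 in REG and 1416982 in HFD cells, and 1 transcript, Lars2, took a median of 26.1% of them. No pair of cells held identical counts. All 3 GABAergic, 4 D1 and 4 medium spiny neuron markers exceeded 15 CPM (counts scaled to a library total of 1000000) in most cells, and none of the glutamatergic, D2, cholinergic, astrocyte, microglial or oligodendrocyte markers did. Of 5 endothelial markers, Pecam1 did, while Cldn5 and Cdh5 were each found in 1 cell. The summed CPM of 7 microglial markers had a median of 50.8 in REG and 52.3 in HFD cells and a mean of 144 and 249, and in 6 cells (2 REG, 4 HFD) at least 4 of the 7 exceeded 15 CPM. Mean sums were also higher in HFD than in REG cells for oligodendrocyte (127 and 66.1 CPM), endothelial (737 and 402 CPM) and D2 markers (118 and 61.9 CPM). They were lower for astrocyte markers (21.5 and 37.2 CPM). Median sums were 29.2 and 16.95 CPM for oligodendrocyte and 318 and 259 CPM for endothelial markers. For D2 (12.5 and 13.2 CPM) and astrocyte markers (10.02 and 9.57 CPM) the medians lay close together, in the order opposite to the means. Pecam1 exceeded 15 CPM in 42 cells, Kdr in 2 and Flt1 in 1, so in most cells the endothelial sum was largely Pecam1. The part of these marker sums in the ratios below was not tested.

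Nearly the whole set was present in these cells. A member counted as detected where its estimated count was above 0, which includes fractions of a read (0.0123 for Nlgn3 in REG cell 18). By this measure 13 of the 35 genes were detected in all 43 cells: Nrxn3, Nlgn1, Lrrtm3, Cadm1, Cadm2, Ptprd, Ptprs, Dlg1, Dlg2, Dlg4, Homer1, Camk2a and Camk2b. The median member was detected in 97.7% of cells. A cell held between 25 and 34 of the 35 genes, with a median of 32 in REG and 31 in HFD cells. When every cell was thinned to 150000 counts, a cell held between 15 and 33 of them, with medians of 28 in REG and 27.5 in HFD cells, and 3 genes, Nlgn1, Dlg4 and Camk2b, were still detected in every cell.

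**Figure D1:**
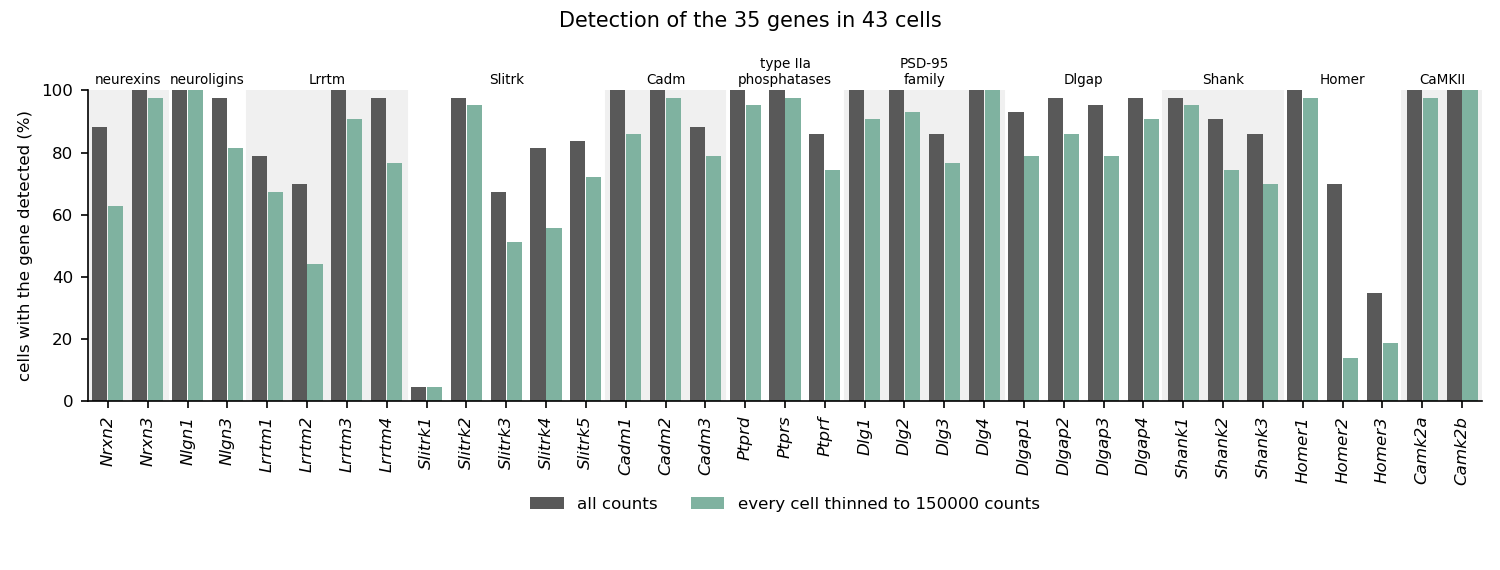
Share of the 43 cells in which each of the 35 genes was detected (y axis, percent), with all counts (dark bars) and with each cell thinned to 150000 counts (green bars). Slitrk1, in 2 of 43 cells, stands apart from the rest, and Homer2 was found in 30 cells with all counts and in 6 after thinning.

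The exceptions were Slitrk1, Homer3 and, at low level, Homer2. Slitrk1 had no count in any REG cell, which allows a share of up to 13% of cells with a count, and 24 counts in 2 of 20 HFD cells (10%, exact 95% interval 1.23 to 31.7%). Amplified reads are not independent molecules, and cells of 1 mouse are not independent of each other, so intervals and limits of this kind describe these cells, cover counting error only and are too narrow for a diet. Homer3 was detected in 15 cells and Homer2 in 30, and after thinning these numbers were 8 and 6. These 3 genes did not pass the expression filter used for comparisons (5 or more cells above 15 CPM, and a mean over 4 CPM), which 32 of the 35 members and 10802 genes in all did.

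The members that passed were expressed above most genes and varied less between cells, in a comparison not matched for level. Their median CPM over the 43 cells had a median of 49.9 over members, against 8.16 over all filtered genes, and 29 of 32 lay above the latter. On the per-length scale of TPM (transcripts scaled to a total of 1000000), the median level was 15.3 over all 35 members and 5.61 over filtered genes. The coefficient of variation of CPM between cells had a median of 111% over members and 160% over filtered genes. It was lowest for Dlg4, which encodes PSD-95 (61.6%), Camk2b (63.6%), Nrxn3 (73.7%) and Camk2a (73.9%).

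**Figure D2:**
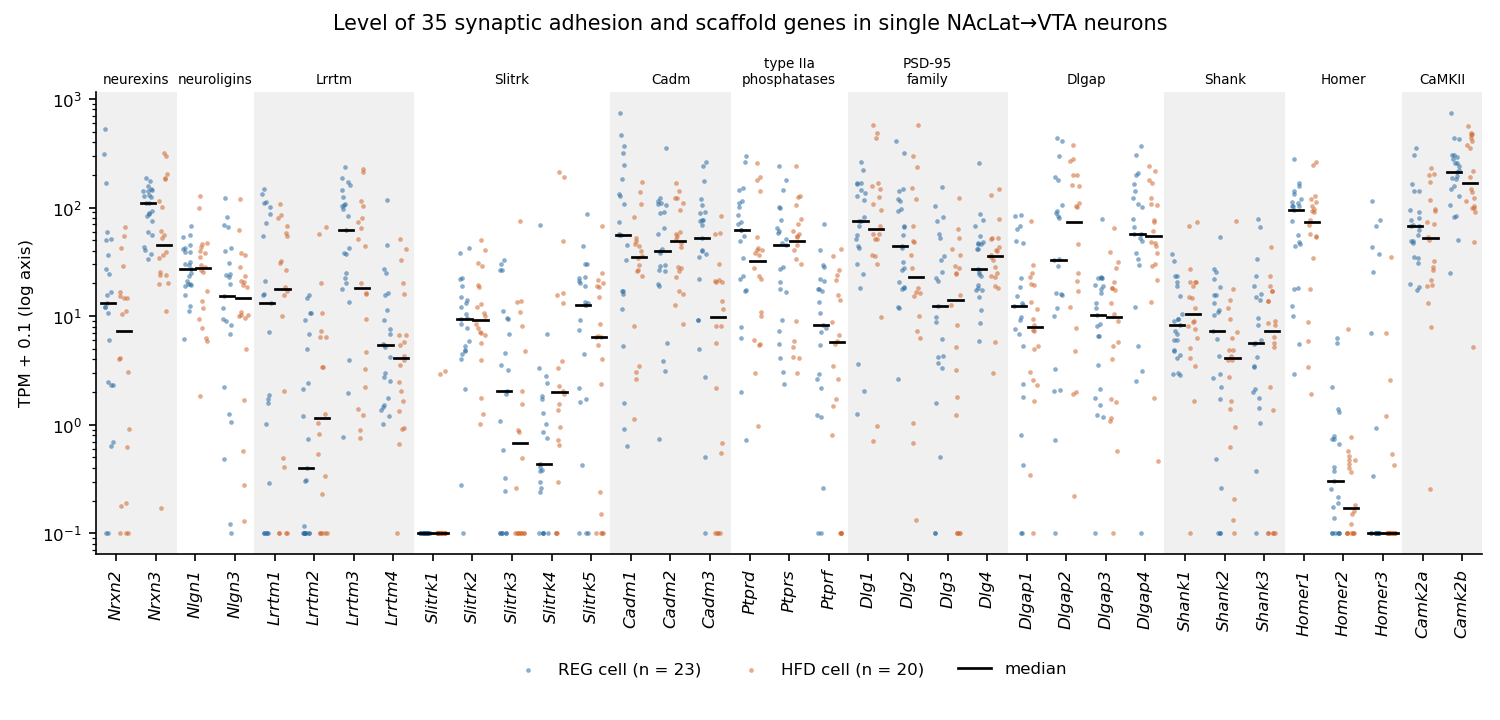
Level of each of the 35 genes in single cells, as TPM plus 0.1 on a log axis; blue points are the 23 REG cells, orange points the 20 HFD cells, and black lines the medians. Camk2b has the highest median (196 TPM over all cells), and Slitrk1 and Homer3 have medians of 0.

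Levels of different genes were compared in TPM. Camk2b, the β subunit of CaMKII, led the set with a median of 196 TPM (interquartile range 109 to 330), followed by Nrxn3 at 86.8 TPM (37.8 to 143), the scaffold Homer1 at 76.3 TPM (26.1 to 112) and Dlg1, which encodes SAP97, at 68.1 TPM (36.1 to 147). Camk2a stood at 62.2 TPM, Dlgap4 at 56.8, Ptprs at 44.8, Cadm1 at 43.8, Cadm2 at 43.2, Lrrtm3 at 42.5 and Ptprd at 40.3. From Nrxn3 down to Ptprd, neighbours in this order lay well inside each other's interquartile ranges, whereas the lower quartile of Camk2b lay above the median of every other member.

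Within families, the member that carried most of the signal was clear in some and shared in others. The share of a family's summed TPM held by each gene was computed in each cell. This share does not depend on the library total, and so not on Lars2. It is given as the median over cells with the number of cells in which that gene was the family's highest.

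Among presynaptic partners, Nrxn3 held 80.9% of the neurexin signal and was higher than Nrxn2 in 38 of 43 cells. Its CPM ranged from 71.1 to 510 in REG cells (median 228) and from 0.366 to 832 in HFD cells (median 161). Nrxn2 was uneven, with a median of 11.9 TPM and a coefficient of variation of 185%. Among the type IIa phosphatases, which help organise presynaptic terminals, Ptprd held 48.4% and led in 25 cells and Ptprs held 32.1% and led in 17. Ptprf, the founding member known as LAR, held 7.08% and led in 1 cell. Ptprs had the higher median TPM over cells (44.8, against 40.3 for Ptprd), so the lead depended on the summary. Ptprs CPM ranged from 9.86 to 404 in REG cells (median 92.9) and from 6.73 to 394 in HFD cells (median 94.2), so the diets covered the same range.

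Among postsynaptic adhesion genes, Nlgn1, the neuroligin of excitatory synapses, held 61.3% against 38.7% for Nlgn3 and was the higher of the pair in 28 of 43 cells. Nlgn1 CPM ranged from 58.5 to 478 in REG cells (median 169) and from 15.7 to 1290 in HFD cells (median 169). Lrrtm3 held 49.4% of the Lrrtm signal and led in 24 cells, with CPM from 0.996 to 468 in REG cells (median 73.5) and from 1.25 to 621 in HFD cells (median 37.4). Lrrtm1 followed with 17.3% and 13 cells, Lrrtm4 with 7.01% and 5 cells, and Lrrtm2 with 1.42% and 1 cell. Lrrtm1 was split between cells: its interquartile range ran from 0.352 to 62.7 TPM.

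In the Slitrk family, whose members bind Ptprd and its relatives, no gene dominated. Slitrk2 held 29.6% and Slitrk5 held 23.4%, and each led in 16 cells, while Slitrk3 led in 6 and Slitrk4 in 5. Slitrk2 had the highest median TPM of the family, and its CPM ranged from 0 to 315 in REG cells (median 45.6) and from 4.38 to 378 in HFD cells (median 47.8). In the Cadm family, Cadm1 (SynCAM1) held 37.4% and led in 17 cells, Cadm2 held 36.2% and led in 18, and Cadm3 held 16% and led in 8. Cadm1 CPM ranged from 1.57 to 750 in REG cells (median 85.7) and from 3.63 to 238 in HFD cells (median 91.4), with its highest values in REG cells and like medians.

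Among scaffold and kinase genes, the Homer and CaMKII families each had a leader. Homer1 held 99.4% of the Homer signal and led in 42 of 43 cells, with CPM from 9.96 to 512 in REG cells (median 187) and from 5.61 to 605 in HFD cells (median 139). The tables sum transcripts to genes, so the long and short forms of Homer1 were not separated. Camk2b held 75.6% of the CaMKII signal and exceeded Camk2a in 38 cells, with CPM from 51.8 to 1170 in REG cells (median 396) and from 15.8 to 1438 in HFD cells (median 368). The share of Camk2b was 75.6% in REG and 75.3% in HFD cells, 73.4% and 74.0% within batch 1 and 79.7% and 82.1% within batch 2.

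The other scaffold families were mixed. Dlg1 held 37.8% of the Dlg signal and led in 18 cells, Dlg2 (PSD-93) held 17.6% and led in 16, Dlg4 (PSD-95) held 16.8% and led in 6, and Dlg3 (SAP102) held 5.36% and led in 3. Dlg1 CPM ranged from 3.61 to 402 in REG cells (median 144) and from 1.20 to 328 in HFD cells (median 87.8). Dlg4 was thus seldom the highest, yet it was the member with the least variation between cells. Among Dlgap genes, Dlgap4 held 37.3% and led in 22 cells and Dlgap2 held 27.8% and led in 18. Dlgap4 CPM ranged from 0 to 301 in REG cells (median 103) and from 0.366 to 370 in HFD cells (median 80.4), with near-complete overlap. Dlgap3, which encodes SAPAP3, held 7.87% and led in 1. Shank1 held 43.9% and led in 20 cells, Shank3 held 25.2% and led in 13, and Shank2 held 20.3% and led in 10.

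**Figure D3:**
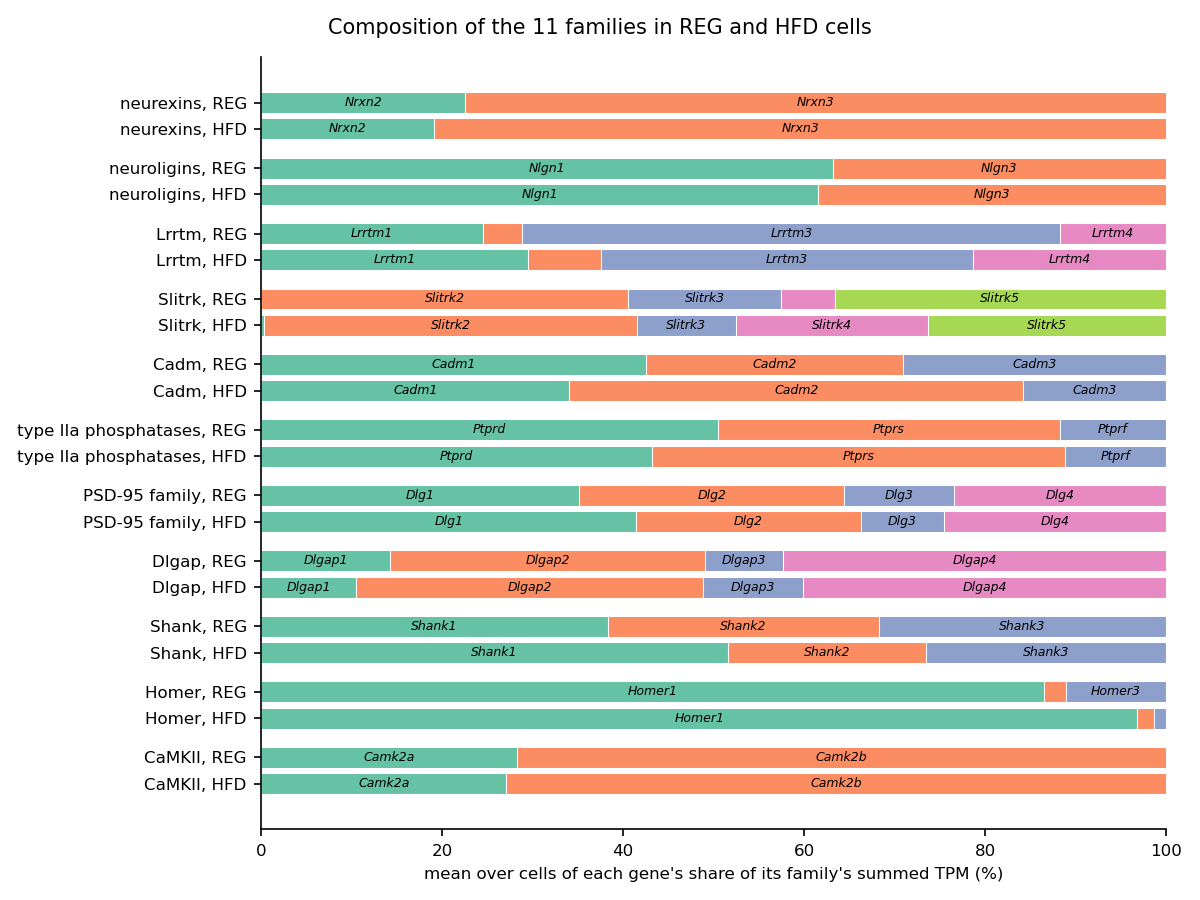
Mean over cells of each gene's share of its family's summed TPM (x axis, percent), in REG and HFD cells, for the 11 families. The bars for CaMKII differ little between the diets (mean Camk2a share 28.2% in REG and 27.1% in HFD), while in the Cadm family Cadm2 takes 28.4% in REG and 50.2% in HFD cells and Cadm3 takes 29.0% and 15.8%.

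For the comparison of diets, the log2 ratio of mean CPM in HFD cells over mean CPM in REG cells was taken for each gene. Over all cells, most members had a lower mean CPM in HFD cells. The ratio was below 0 for 22 of 32 filtered members (68.75%) and for 6174 of 10801 filtered genes. By batch, the median ratio of members was -0.33 in batch 1 and 0.014 in batch 2, beside -0.07 and -0.16 over filtered genes. The filtered genes set beside the members were not matched for level. The median ratio of the 32 filtered members was -0.23 with an interquartile range of 0.64 wide, against -0.13 and 1.05 over all filtered genes, and 20 of 32 members (62.5%) lay within 0.5 of 0, against 47.3% of filtered genes. The summed CPM of the members had a median of 3507 in REG cells (1977 to 4935) and 3464 in HFD cells (706 to 5212). The value of 706 was that of HFD cell 8, in which Lars2 took 79.8% of counts. By diet and batch, the summed CPM had medians of 4287 and 4160 in REG and HFD cells of batch 1 and 3076 and 3287 in batch 2, so the batches lay further apart than the diets.

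A fold was counted where the ratio was at least 1 or at most -1, a rule of size and not a test. At least 1 was reached by 2 of 32 members (6.25%), Slitrk4 and Lrrtm2, against 9.04% of filtered genes. At most -1 was reached by 1 of 32 (3.12%), Cadm3, against 14.3% of filtered genes. All 3 are adhesion genes, so 2 of 18 and 1 of 18 filtered adhesion members passed, beside the same 9.04% and 14.3% of filtered genes. The 18 had a median ratio of -0.26, and the 14 scaffold and kinase members had a median of -0.16, with none past a limit over all cells. Within batch 1, 1 of the 14 was at most -1, as were 2458 of 10670 filtered genes. Within batch 2, 1 was at least 1 and 1 at most -1, as were 1450 and 2267 of 10783 filtered genes. No contrast between adhesion and scaffold genes is drawn from these counts.

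Several of the best-expressed members had ratios close to 0, and others did not. The ratio was 0.02 for Camk2b, -0.02 for Homer1, -0.03 for Cadm2, -0.06 for Dlgap4 and -0.17 for Nrxn3, while Dlg1 and Camk2a stood at -0.29 and -0.33. Cadm1 and Ptprd, also among the best-expressed, lay further below 0, with values given below. Lrrtm3 was lower in HFD cells in both batches. For Camk2b, values of 0.23 in batch 1 and 0.29 in batch 2 stood on the same side, and leaving out any 1 cell gave -0.13 to 0.11. For others a pooled value near 0 joined batch values of opposite sign, in batch 1 and batch 2: -0.55 and 0.26 for Homer1, 0.34 and -0.36 for Nrxn3, and 0.24 and -0.12 for Dlgap4. Slitrk3, a gene of low level (median 0.986 TPM) at a ratio of -0.04, had the widest such split, at 1.21 and -1.12. Its highest value, 252 CPM, came from 45 counts in HFD cell 1, a batch 1 library of 178341 counts. Without that cell its ratio over all cells was -1.33, so the split leaned on 1 shallow library.

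Of the 32 members, 12 (37.5%) had the same sign of ratio in both batches, against 49.2% of filtered genes, and 9 (28.1%), against 38% of filtered genes, also kept that sign when any 1 cell was left out. These 9 were Slitrk4 and Lrrtm2, higher in HFD cells, and Nrxn2, Lrrtm3, Cadm3, Ptprd, Dlg3, Dlgap1 and Shank2, lower. Among the 7, Ptprd was even across batches, with a ratio of -0.65 over all cells, -0.87 in batch 1 and -0.51 in batch 2, as was Dlgap1 at -0.67, -0.80 and -0.88. Nrxn2 was not: its ratio of -0.55 became -2.54 in batch 1, and leaving out HFD cell 18 moved it to -1.56.

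**Figure D4:**
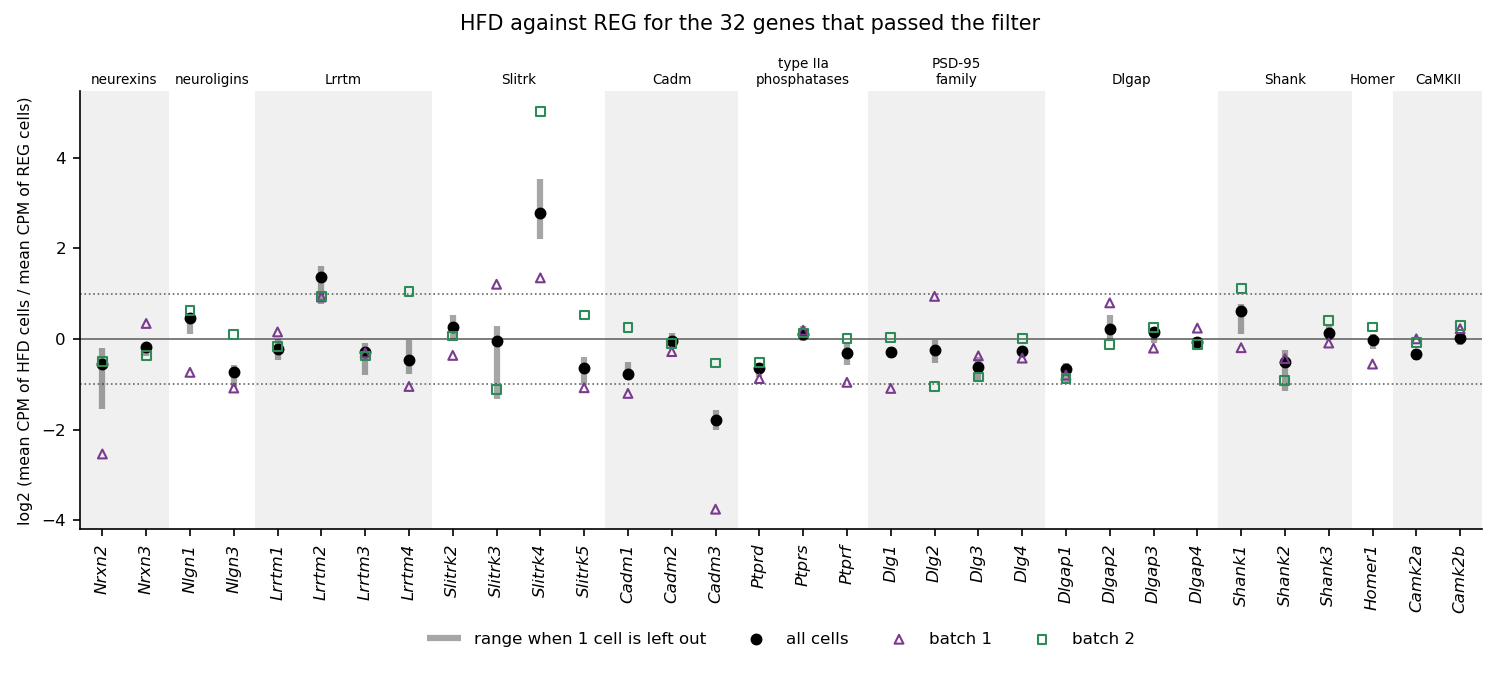
Log2 ratio of mean CPM, HFD over REG, for the 32 filtered genes (y axis); black points are all cells, triangles batch 1, squares batch 2, grey bars the range when any 1 cell is left out, and dotted lines the limits of 1 and -1. Slitrk4 (2.78) and Lrrtm2 (1.37) lie above the upper limit and Cadm3 (-1.78) below the lower one, and for many genes the batches fall on opposite sides of 0.

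Cadm3, an adhesion protein also known as Necl-1 and found mainly in neural tissue, was lower in HFD cells. Its CPM ran from 0 to 450 in REG cells with a median of 76.9 and a mean of 111, and from 0 to 121 in HFD cells with a median of 17.2 and a mean of 32.1. It was detected in 22 of 23 REG cells (95.7%, exact 95% interval 78.1 to 99.9%) and 16 of 20 HFD cells (80.0%, 56.3 to 94.3%). The groups overlapped, but 7 REG cells and 1 HFD cell had Cadm3 as the highest Cadm gene.

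The ratio of Cadm3, -1.78, was carried by batch 1. There the 13 REG cells ran from 22.7 to 450 CPM with a median of 129, and the 5 HFD cells from 0 to 28.3 with a median of 0.765, a ratio of -3.76. In batch 2 the medians were 22.4 CPM in 10 REG and 18.3 CPM in 15 HFD cells, a ratio of -0.53. In batch 1, all but the lowest REG cell thus lay above every HFD cell, while in batch 2 the diets covered much the same range. Leaving out any 1 cell gave -2.01 to -1.57. In batch 1, HFD cells 1 and 2 had no Cadm3 count at depths of 178341 and 262790 counts, and HFD cell 3 had 1 count. REG cell 1, at a depth of 176961, had 22 Cadm3 counts. Exons of Cadm3 overlap those of Ackr1 on the same strand, and the ratio of Ackr1 was -0.57, with means of 29.3 CPM in REG and 19.7 CPM in HFD cells.

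Cadm2 had a larger share of the family in HFD cells at a like level of its own. Its CPM ran from 4.33 to 866 in REG cells and from 49.1 to 781 in HFD cells, with a median of 214 in each, and its ratio was -0.03, or -0.28 in batch 1 and -0.09 in batch 2. Its share of the Cadm signal had a median of 22.5% in REG cells (interquartile range 9.98 to 34.2%) and 50.5% in HFD cells (37.7 to 67.5%). This held in each batch, with 21.5% and 53.2% in batch 1 and 24.6% and 47.9% in batch 2. Cadm2 was the highest Cadm gene in 5 of 23 REG and 13 of 20 HFD cells. The share of Cadm3 was 25.7% in REG and 9.56% in HFD cells, but 38.1% and 0.338% in batch 1 and 13.9% and 9.83% in batch 2, and that of Cadm1 was 44.4% and 35.5%. Cadm1 did not reach the limit of -1, with a ratio of -0.78 that was -1.20 in batch 1 and 0.26 in batch 2.

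The sequences before these Cadm genes are given because the pair diverged within the family. RefSeq (GRCm38.p6) gave a promoter for 25 of the 35 members. The 250 bases before the listed start of Cadm2 (chr16:67620909-67621158, minus strand) and of Cadm3 (chr1:173367696-173367945, minus strand) overlap no annotated exon, and CpG dinucleotides are in capitals.
Cadm2: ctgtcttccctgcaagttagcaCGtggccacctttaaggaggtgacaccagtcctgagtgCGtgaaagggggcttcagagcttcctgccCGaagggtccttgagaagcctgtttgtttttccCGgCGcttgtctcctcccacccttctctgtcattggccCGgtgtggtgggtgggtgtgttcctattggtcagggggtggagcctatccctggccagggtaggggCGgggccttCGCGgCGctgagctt
Cadm3: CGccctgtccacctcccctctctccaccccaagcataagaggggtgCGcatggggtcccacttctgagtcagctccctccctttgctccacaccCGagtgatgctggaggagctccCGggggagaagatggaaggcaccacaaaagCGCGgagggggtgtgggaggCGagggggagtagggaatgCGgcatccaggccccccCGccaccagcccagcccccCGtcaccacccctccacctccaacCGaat

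The windows were alike in CpG content, with 10 CpG in that of Cadm2 and 11 in that of Cadm3. The 25 members had a median of 9 CpG in such a window, and 12 of them (48.0%) had at least 10, against a median of 17 and 76.6% of the 8361 filtered genes with an entry and a median of 6 and 38.2% of all 27025 promoters. CpG was counted on the listed strand, which gives the same number on either strand. With the listed start of highest count in place of the first, 64.0% of members and 80.6% of filtered genes had at least 10.

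Slitrk4, an X-linked adhesion gene, was higher in HFD cells, and a few cells carried its mean. Its CPM ran from 0 to 106 in REG cells, with a median of 1.90 and a mean of 10.8, and from 0 to 533 in HFD cells, with a median of 9.96 and a mean of 74.0. The ratio was 2.78, with 1.35 in batch 1 and 5.02 in batch 2. HFD cell 13, at 533 CPM, and HFD cell 19, at 532 CPM, stood far above the next HFD cell, at 146 CPM, and HFD cell 13 alone held 36.0% of the summed CPM.

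Without HFD cell 13 the ratio was 2.21, and without REG cell 13, at 106 CPM, it was 3.52. Neither HFD cell 13 nor HFD cell 19 had any of the 7 microglial markers above 15 CPM. In batch 2, REG cells did not exceed 6.86 CPM, and their mean was 2.59 CPM against 84.2 CPM in HFD cells. The medians there were 1.81 and 7.45 CPM, and in batch 1 they were 7.54 and 21.2 CPM. Summed over cells there were 577 counts in REG and 4878 in HFD cells, of which REG cell 13 gave 397 and HFD cell 19 gave 2909, so 1 library supplied most of each sum. On thinning, Slitrk4 was detected in 10 of 23 REG and 14 of 20 HFD cells. Its share of the Slitrk signal had a median of 2.10% in REG and 7.71% in HFD cells.

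Lrrtm2, a leucine-rich repeat protein that binds neurexins, reached a ratio of 1.37, but its mean and median did not tell the same story. Its CPM ran from 0 to 54.5 in REG cells, with a median of 1.12 and a mean of 12.8, and from 0 to 246 in HFD cells, with a median of 3.86 and a mean of 33.1. By batch the ratio of means was 0.93 and 0.95. Within each batch the median was lower in HFD cells, at 0 against 0.921 CPM in batch 1 and 3.88 against 12 CPM in batch 2. HFD cells 9, 16 and 20 were the ones above the REG range.

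HFD cell 9, at 246 CPM, held 37.1% of the summed CPM in HFD cells, and without it the ratio was 0.77. Without HFD cell 16, at 204 CPM, it was 0.91. HFD cell 16 had 6 of 7 microglial markers above 15 CPM, HFD cell 9 had 3, and HFD cell 20, the next at 68.3 CPM, had 4. Without the 6 cells that had at least 4, a set chosen after the data were seen, the ratio was 0.997. The part of these markers in the ratio was not tested. Exons of Lrrtm2 overlap those of Ctnna1 on the opposite strand, and the kits do not mark strand, so reads of the shared stretch cannot be told apart. Ctnna1 had a ratio of 0.45, with means of 13.5 CPM in REG and 18.5 CPM in HFD cells.

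**Figure D5:**
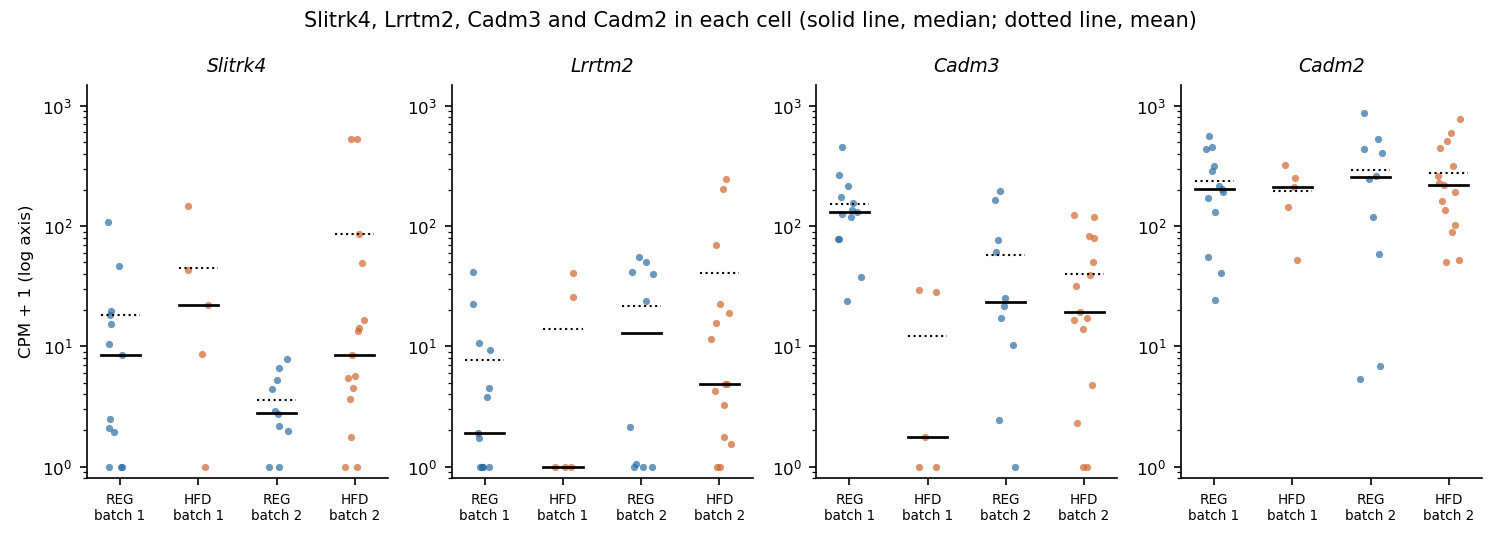
CPM plus 1 on a log axis for Slitrk4, Lrrtm2, Cadm3 and Cadm2 in each cell, by diet and batch; solid lines are medians and dotted lines means. The difference in Cadm3 is wide in batch 1 (medians 129 and 0.765 CPM) and small in batch 2 (22.4 and 18.3 CPM), Slitrk4 is drawn up by HFD cells 13 and 19 of batch 2 (533 and 532 CPM), and Cadm2 lies at like levels in the 4 groups.

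Among scaffolds, the largest ratio was that of Shank1, 0.61, with -0.19 in batch 1 and 1.12 in batch 2, and without HFD cell 15, the highest at 659 CPM, it was 0.12. Its CPM ran from 15.4 to 234 in REG cells (median 48.3) and from 0 to 659 in HFD cells (median 66.1), and its share of the Shank signal was 35% in REG and 46.5% in HFD cells. Shank2 stood at -0.51, and at -1.15 without the same cell, with a share of 32.8% in REG and 11.9% in HFD cells that did not hold by batch (3.84% and 38.0% in batch 1, 38.3% and 10.2% in batch 2). Shank3, whose loss in people causes a syndrome with autism, was close to 0 at 0.13, with medians of 17.6 and 19.6 CPM.

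Homer3 gave the lowest ratio of the 3 genes under the filter, -2.42, with means of 5.11 CPM in REG and 0.957 CPM in HFD cells. Its median was 0 in each diet, and 9 REG and 6 HFD cells had an estimated count above 0. In HFD cells 14 and 18 that estimate was below 1 (0.725 and 0.0561). After thinning, 6 REG and 2 HFD cells had a count. Its exons overlap those of Ddx49 on the opposite strand, which had a mean of 34.2 CPM in REG and 25.4 CPM in HFD cells. The mean Homer3 share of the Homer signal was 11% in REG and 1.29% in HFD cells, beside mean Homer1 shares of 86.6% and 96.8% and median Homer1 shares of 98.5% and 99.6%.

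More members passed a limit between the batches than between the diets, in smaller groups of cells. Among REG cells alone, the log2 ratio of batch 2 over batch 1 was at least 1 for 2 members (Lrrtm2, 1.61, and Shank2, 1.18) and at most -1 for 7 (Slitrk4, Lrrtm4, Slitrk5, Slitrk3, Cadm1, Cadm3 and Nlgn3, from -2.72 to -1.30). Together 9 of 32 members (28.1%) passed a limit here, against 37.2% of filtered genes. All 3 members past a limit in the diet comparison were among them, but not all in the same direction. Lrrtm2, higher in batch 2, and Cadm3, lower in batch 2, moved in the direction of their diet ratios. Slitrk4, lower in batch 2, moved against its diet ratio. The part of batch in these ratios was not tested. Batch 1 held 13 of 23 REG but 5 of 20 HFD cells, so the pooled ratios mix diet and batch in unequal parts.

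Other genes of the same structures, from a list drawn up with earlier results of these data known, were also examined. Among all filtered genes, 9.04% had a ratio of at least 1 and 14.3% of at most -1. Of 41 other synaptic adhesion genes 33 passed the filter, with a median ratio of -0.06, and 1 was at least 1 and 2 at most -1. Of 34 other genes of the postsynaptic density 33 passed, with a median of 0.06, and 1 was at least 1 and 1 at most -1. The 5 past a limit kept their sign by batch and without any 1 cell, but Lrfn3, Grip1 and Pick1 did not stay past it. They were Cadm4, the remaining Cadm gene, at 2.22, and Pick1, a PDZ protein that binds AMPA receptors, at 1.26, both higher in HFD cells, and Flrt2 at -1.54, Grip1 at -1.53 and Lrfn3 at -1.47. Cadm4 was a minor gene in these cells, with a median of 0.493 TPM and means of 2.44 CPM in REG and 11.4 CPM in HFD cells. Lrfn3 was detected in 13 of 43 cells, with a median of 0 CPM in each diet and a highest value of 138 CPM, in a REG cell. Median CPM in REG and HFD cells was 11.7 and 3.43 for Flrt2 and 2.98 and 1.82 for Grip1. Pick1 had means of 29.1 and 69.5 CPM, and its ratio was 0.56 in batch 2 and 0.50 at the lowest when 1 cell was left out. The corresponding value nearest 0 was -0.33 for Lrfn3, which was also -0.33 in batch 2, -0.97 for Grip1, which was -0.71 in batch 1, -1.14 for Flrt2 and 1.17 for Cadm4.

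Long gene bodies, which the list did not select for, were more frequent among the members than among filtered genes. In GENCODE annotation of GRCm38 their spans ran from 5.36 kb for Slitrk1 to 2271 kb for Ptprd, with 1973 kb for Dlg2 and 1612 kb for Nrxn3. The median was 83.2 kb, and 16 of 35 (45.7%) exceeded 100 kb, against a median of 26.1 kb and 15.8% of 10780 filtered genes. The genes past a limit were on the short side, at 12.1 kb for Slitrk4, 6.02 kb for Lrrtm2 and 34.4 kb for Cadm3. The set included 4 X-linked genes (Nlgn3, Slitrk2, Slitrk4 and Dlg3), and 16 of the 35 had exons that shared bases with another annotated gene.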

How the data were processed

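Single-cell patch RNA sequencing covered 43 cells with 1 library each. Per the labels and methods, contents were aspirated through the patch pipette, amplified with a SMART-Seq Single Cell kit or SMART-Seq v4, and made into Nextera XT libraries; which kit served which cell or batch is not given in the sources used here. The authors pseudo-aligned reads with kallisto to the Ensembl GRCm38 transcriptome, removed outlying cells and summed transcripts to gene symbols; the deposited tables hold estimated counts and TPM. Cells were grouped by labelled diet and batch.

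CPM was each estimated count over its cell's total, times 1000000. Genes above 15 CPM in at least 5 cells with a mean above 4 were kept. Fold differences were log2 ratios of mean CPM with no pseudocount, and TPM served for levels between genes. Thinning drew 150000 counts per cell without replacement. Intervals are exact (95%), and a count of 0 was bounded by 3 counts. edgeR 4.0.16 and DESeq2 1.42.0 (R 4.3.3) supplied scaling factors and coefficients, read as values, never as tests; Python 3.11.15 did the rest, tested on simulated data. Depth was 176961 to 16919555 counts per cell, so a gene at 1 count in the shallowest cell stands near 5.65 CPM.

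All 35 members are named. Values over cells are given in full for the gene of each family with the highest median TPM and for members with a ratio of at least 1 or at most -1; of other synapse genes, up to 5 per direction past that limit with the sign kept in both batches and without any 1 cell. Other named genes were chosen after their values were seen. Members and lists were chosen with earlier results of these data known. Alternatives covered unit, scaling, summary, batch, filter, thinning and leaving out each cell.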

Additional observations from a re-analysis of the deposited data

How the results depend on the processing

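With 1 sample per diet no result had a test, and the labels pair no cells or mice, so no paired analysis was possible because no replicate number links REG and HFD cells. Detection of the median member, 97.7% of cells, was 81.4% on thinning, 76.7% with at least 10 counts, 74.4% above 15 CPM and 100% in batch 2. The median ratio of members, -0.23, was -0.10 with TMM factors, -0.11 with DESeq2 size factors, -0.34 as a difference of mean log2(CPM + 1), -0.10 as the edgeR coefficient, -0.33 in batch 1 and -0.13 without cells with microglial markers, and it turned to 0.0055 in edgeR with batch and 0.014 in batch 2. Leaving out 1 cell gave -0.28 to -0.13. TMM and DESeq2 factors raised all filtered genes by a median of 0.13 and 0.14. Members past a limit, 3 in all, numbered 5 with TPM, 6 with summed counts, 9 in batch 1, 5 in batch 2, 5 without a filter and 2 to 5 when 1 cell was left out. The 5 came without HFD cell 18, when Nrxn2 and Slitrk5 passed -1; without HFD cells 9 or 16 Lrrtm2 dropped out. Other synapse genes past a limit, 5 in all, numbered 9 with TPM and 10 with TMM factors. They numbered 15 in batch 1, 12 in batch 2 and 13 without a filter. Counts over filtered genes changed too. At least 1 and at most -1 were reached by 977 and 1541 of 10802 over all cells. The numbers were 1972 and 2458 of 10670 in batch 1 and 1450 and 2267 of 10783 in batch 2. With TPM they were 994 and 1693 of 10801, and with TMM factors 1412 and 1326 of 10801. Slitrk4, Lrrtm2 and Cadm3 kept their sign in all alternatives run, at 1.35 to 5.02, 0.71 to 1.72 and -3.76 to -0.53. The cause of these moves was not tested. The gene with the highest median TPM was the same in all alternatives for 7 of 11 families, and not for Cadm, Dlgap, type IIa phosphatases and Slitrk. On thinning, Homer2 was detected in 6 cells in place of 30 and Homer3 in 8 in place of 15; Slitrk1 was detected in 2 either way.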

Other observations

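Grip2, a PDZ protein that binds AMPA receptors and was singled out after its values were seen, had higher values than any member. It was detected in all 43 cells, at 328 to 14025 CPM (median 2909) in REG cells and 379 to 12340 CPM (median 2534) in HFD cells. In TPM, its median of 759 ranked 78 among all genes, and it exceeded Camk2b, the leading member, in 39 of 43 cells. Its relative Grip1 had a median of 1.35 TPM. No other annotated gene shares exon bases with Grip2, but gene-level tables do not show whether the reads cover the gene or come from unannotated or internally primed transcripts, so the values are those assigned to Grip2. The log2 ratio of Grip2, HFD over REG, was 0.06. Medians were 3220 CPM in batch 1 and 2033 CPM in batch 2. The next of the other postsynaptic density genes in TPM was Baiap2, which encodes IRSp53, with a median of 250 TPM.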
